A study of Mus musculus with 6 samples.

Results

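A list of 34 marker genes of Kupffer cells, other macrophages, monocytes and neutrophils was followed in liver RNA of Trim24 knockout and wild type mice. Members were picked by gene symbol as known markers, and all 34 were found among the 23284 genes counted. The list was drawn up with earlier results of these data known, so its share of calls carries no independent support. The knockout libraries, KO1 to KO3, came from liver of Trim24 -/- mice and the wild type libraries, WT1 to WT3, from liver of wild type mice, all at 8 weeks of age and of the C57BL6/J strain. Trim24 encodes a cofactor of nuclear receptors, and the study concerns lipid accumulation and carcinoma in livers that lack it. The labels do not say whether each library came from a separate mouse, how the allele was made or whether littermates were used, so the p-values speak only to the spread among these 6 libraries, which may be technical.

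Kupffer cells are the resident macrophages of the liver, seated in the sinusoids, where they take up bacteria, worn red blood cells, lipids and immune complexes from portal blood. In the mouse they are recognised by the lectin Clec4f together with Vsig4, Timd4 and Cd5l. Monocytes that enter an inflamed liver carry Ccr2 and Itgam at first and can settle as macrophages, and lipid-laden macrophages of fatty liver are known for Trem2, Gpnmb, Spp1 and Lgals3. Neutrophils are marked by Csf3r and by the paired calcium-binding proteins S100a8 and S100a9. In whole-tissue RNA, more cells of a type and more RNA per cell cannot be told apart.

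Reads counted in genes numbered 1607276 to 2872421 in the knockout libraries and 1495583 to 1732309 in the wild type libraries. These were 4.74% to 6.69% and 4.22% to 5.4% of counted reads, so many markers rested on few reads. The reads in no gene were 93.3% to 95.8%, and the cause of this large share was not tested. With the strand setting of the counting unknown, whether the counts are sense reads of the markers cannot be told. Trim24 had 3, 2 and 2 reads in KO1, KO2 and KO3, against 31, 45 and 44 in WT1 to WT3, which fits the labelled genotypes. As a check of the tissue, all 10 hepatocyte-defining genes passed the filter and summed to 118000, 87900 and 118000 CPM in KO1, KO2 and KO3, against 138000, 129000 and 135000 CPM in WT1 to WT3. CPM here are counts per 1e6 reads in tested genes, with library sizes scaled by TMM factors. One of the 10, Cyp2e1, fell in the knockout (2950 ± 974 CPM in knockout and 6710 ± 176 CPM in wild type, SD, n = 3 each). Transcripts of pancreatic acinar cells summed to 1050 and 685 CPM in KO1 and KO3 but to 14.1 CPM in KO2, against 12.5 to 39.1 CPM in the wild type libraries. A fit with KO2 as the only knockout library was therefore run as well.

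Of the 34 markers, 21 passed the expression filter, which asks for about 10 reads in 3 libraries (5.99 CPM of all reads in genes), and 13 did not. Among the 21, 5 rose in the knockout and none fell at an adjusted p under 0.05 (edgeR quasi-likelihood test, Benjamini-Hochberg over 9180 genes). These were the leukocyte integrin chain Itgb2, the oxidase subunit Cybb, the pore-forming protein Mpeg1, the lysosomal protease Ctss and the neutrophil receptor Csf3r. That is 23.8% of the tested markers, where 3.08% of all tested genes were called higher and 2.65% lower. Another 9 markers had an unadjusted p under 0.05 without passing the threshold, which makes 14 of 21 where 10.3% of all genes were higher at that level. The median log2 fold change of the 21 was 0.83, against 0.008 over all tested genes, and 20 of the 21 were positive.

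Because 6 of the 21 lay below the filter level in at least 1 wild type library and passed through their knockout reads, the filter favours rises among them. The 15 that reached the level in every wild type library included 3 of the rises, Mpeg1, Ctss and Cybb, and also had a median of 0.83. Itgb2 and Csf3r were below the level in all 3 wild type libraries. With no filter, all 34 could be fitted, 15 were called higher where 3.39% of all genes were, and 32 had a positive change.

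**Figure D1:**
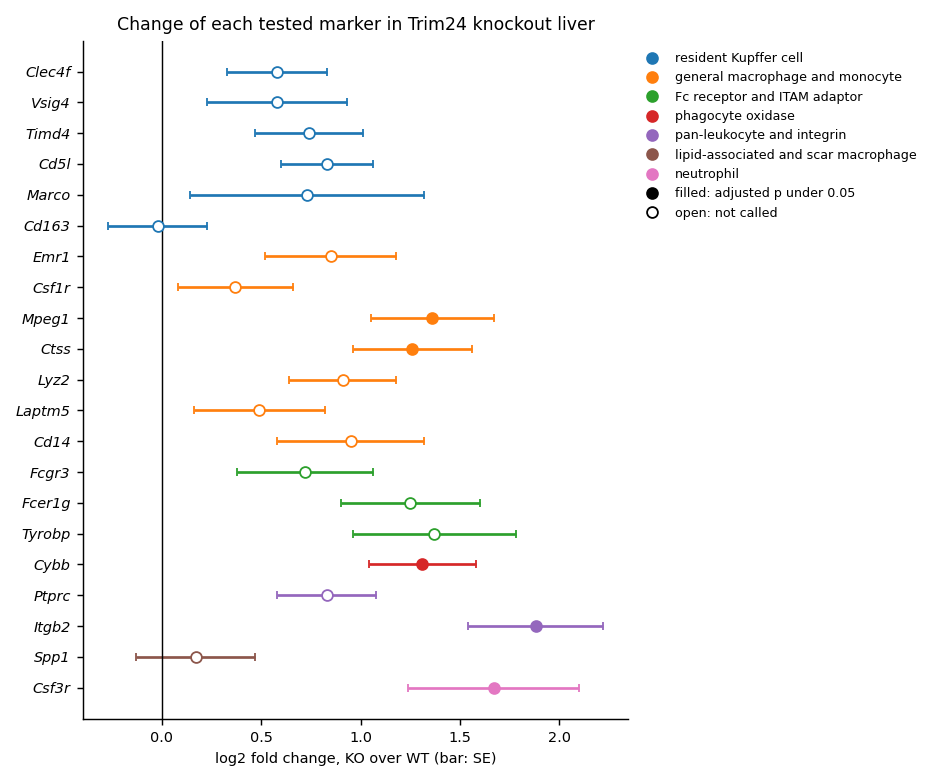
Log2 fold change (KO over WT, x axis) with its standard error for each of the 21 tested markers (y axis), coloured by role, with filled points for an adjusted p under 0.05. The 5 filled points lie between 1.26 and 1.88, while Cd163 and Spp1 sit near 0 at -0.02 and 0.17.

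Promoters of the called markers were read for motifs of myeloid and interferon-responsive genes. The windows printed were chosen by the calls, and a link between a match and a rise was not tested. The windows run from 250 bases before to 50 after the RefSeq start site on GRCm38.p6, 5′ to 3′ along the gene, with capitals for matches on either strand to GAGGAA, the core that the macrophage factor PU.1 binds, or to the interferon response repeat (GAAA, any 2 bases, GAAA) that IRF factors bind. The table used held windows for 29 of the 34 markers, and Itgb2 is not among them.
Ctss, chr3:95526536-95526835, plus strand: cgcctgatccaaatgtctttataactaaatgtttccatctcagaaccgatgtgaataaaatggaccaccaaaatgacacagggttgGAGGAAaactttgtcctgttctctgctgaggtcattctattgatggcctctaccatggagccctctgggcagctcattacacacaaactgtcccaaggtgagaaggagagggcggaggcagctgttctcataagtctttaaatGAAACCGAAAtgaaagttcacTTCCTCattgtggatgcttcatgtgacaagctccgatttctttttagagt
Cybb, chrX:9469275-9469574, minus strand: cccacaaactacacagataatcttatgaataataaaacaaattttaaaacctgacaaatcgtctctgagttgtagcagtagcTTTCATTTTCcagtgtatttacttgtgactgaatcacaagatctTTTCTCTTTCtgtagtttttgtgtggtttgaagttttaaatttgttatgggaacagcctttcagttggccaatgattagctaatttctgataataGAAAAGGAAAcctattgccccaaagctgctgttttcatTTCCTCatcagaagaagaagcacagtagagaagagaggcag
Mpeg1, chr19:12460520-12460819, plus strand: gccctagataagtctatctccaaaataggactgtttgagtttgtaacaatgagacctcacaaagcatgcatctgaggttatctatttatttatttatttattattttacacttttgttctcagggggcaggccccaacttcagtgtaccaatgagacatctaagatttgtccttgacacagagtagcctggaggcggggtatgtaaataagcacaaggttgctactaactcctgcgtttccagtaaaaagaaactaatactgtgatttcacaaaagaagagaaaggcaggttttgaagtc
Csf3r, chr4:126024409-126024708, plus strand: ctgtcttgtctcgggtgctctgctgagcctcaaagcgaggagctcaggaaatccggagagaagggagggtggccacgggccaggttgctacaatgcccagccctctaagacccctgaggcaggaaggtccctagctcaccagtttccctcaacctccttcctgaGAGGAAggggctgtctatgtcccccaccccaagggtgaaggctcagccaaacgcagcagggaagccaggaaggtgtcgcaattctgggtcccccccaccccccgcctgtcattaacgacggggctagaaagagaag
The Ctss window held 2 matches to GAGGAA and 1 to the repeat, that of Cybb 1 and 3, that of Csf3r 1 and 0, and that of Mpeg1 none. The window of the resident gene Clec4f, which was not called, also held none. GAGGAA was found in 17 of the 32 windows of the markers (53.1%), where 28.3% of 32851 windows of all genes held it. The repeat was found in 4 marker windows, those of Aif1, Ctss, Cybb and Spp1 (12.5%, against 3.44% of all windows). Of these, Spp1 was not called and Aif1 was not tested. The longer GAGGAAGT, which contains the first motif, was in 3 marker windows, those of Ctss, S100a8 and Spp1 (9.38%, against 3.2% of all windows). S100a8 was not tested, and 3 windows are few for such a share. A match is a run of letters and was not tested as a binding site.

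None of the 6 resident Kupffer cell genes passed the test, and they spanned log2 fold changes of -0.02 to 0.83 (median 0.66). Clec4f had 48.9, 89.5 and 114 CPM in KO1, KO2 and KO3, against 51.7, 63.5 and 55.8 CPM in WT1 to WT3 (log2 fold change 0.58, SE 0.25, edgeR adjusted p = 0.2). KO1 lay below every wild type library, and Clec4f was called without KO1 (0.84, edgeR adjusted p = 0.013) and with no filter (edgeR adjusted p = 0.043), but in no other fit. Cd5l, a scavenger receptor family protein secreted by macrophages, came closest, with 53.3, 85.7 and 83.5 CPM in the knockout libraries against 31.4, 55.6 and 39.2 CPM in the wild type ones (0.83, SE 0.23, edgeR adjusted p = 0.052). KO1 overlapped WT2 for it.

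Timd4, the phosphatidylserine receptor of long-lived Kupffer cells, was the resident gene whose groups did not overlap. Its values were 19.8, 16.3 and 16.4 CPM in KO1, KO2 and KO3, against 7.68, 11.9 and 11.3 CPM in WT1 to WT3 (0.74, SE 0.27, edgeR adjusted p = 0.13). It was also the 1 resident gene that was highest in KO1.

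Vsig4, the complement receptor with which Kupffer cells catch opsonised bacteria, averaged 37.2 ± 12.9 CPM in knockout and 25.2 ± 13.3 CPM in wild type (SD, n = 3 each). The haemoglobin scavenger receptor Cd163 was level, at 40.3 ± 7.57 CPM in knockout and 41.0 ± 14.8 CPM in wild type (log2 fold change -0.02, SE 0.25), with a sign that turned positive under several other fits. Marco, a scavenger receptor for bacteria and particles, had 4, 15 and 18 reads in KO1, KO2 and KO3, against 2, 11 and 3 in WT1 to WT3. WT1 was the lowest wild type library for each of these 3 genes, and KO1 the lowest knockout library.

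**Figure D2:**
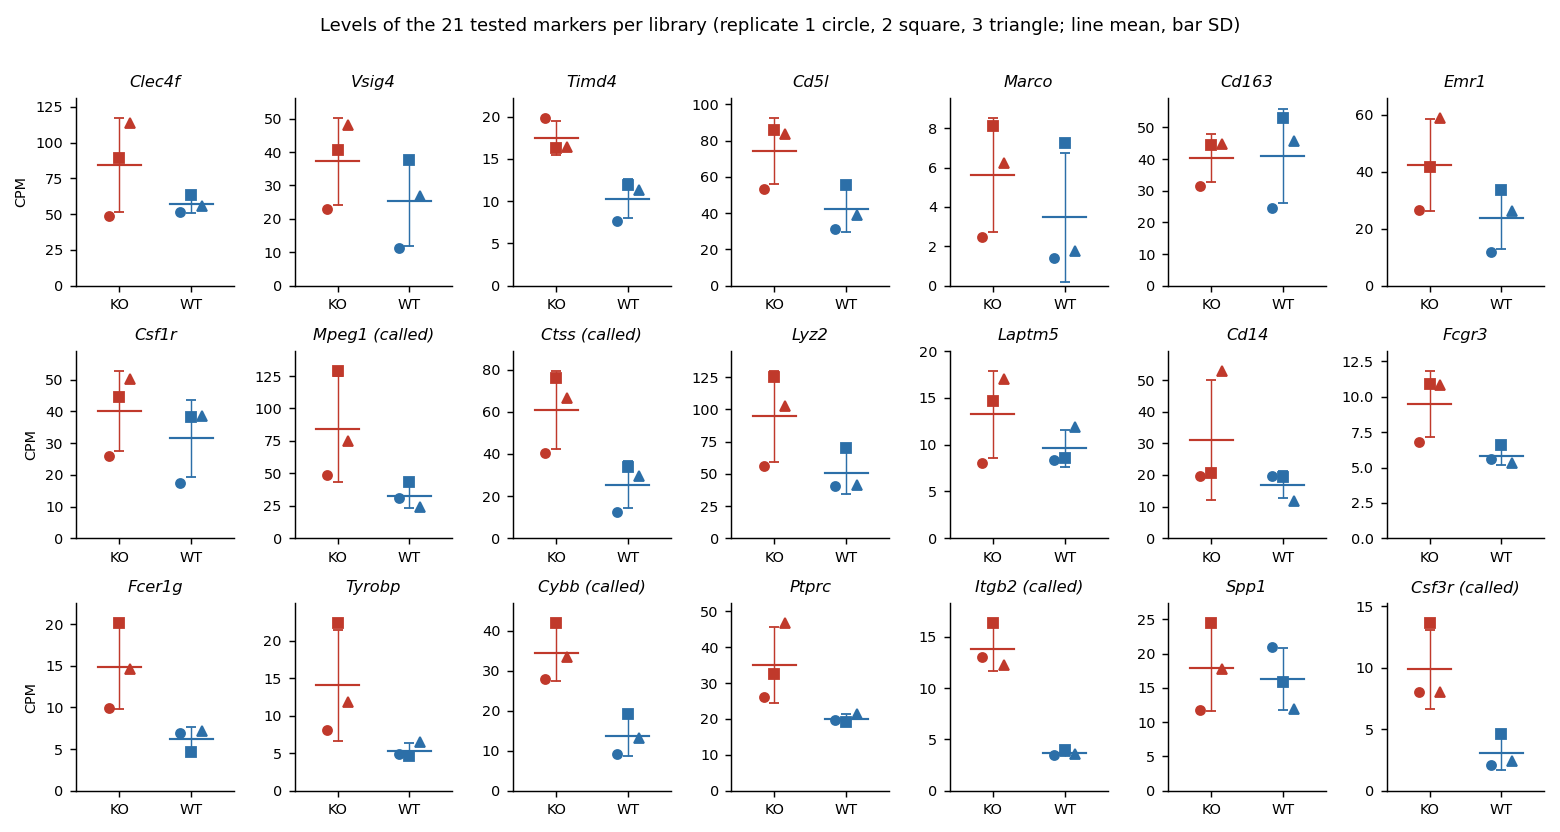
CPM of the 21 tested markers (y axes start at 0) in the KO and WT libraries (x axis), with group mean and SD over 3 libraries. Itgb2 shows a clear gap, with 12.2 to 16.3 CPM in knockout and 3.49 to 3.97 CPM in wild type, whereas Cd163 and Spp1 overlap.

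Among the 10 general macrophage and monocyte genes, 7 were tested and 2 rose. Mpeg1, which encodes perforin-2, had 48.9, 129 and 74.8 CPM in KO1, KO2 and KO3, against 30.7, 43.6 and 24.3 CPM in WT1 to WT3. The groups did not overlap, and the change was 2.57-fold (log2 fold change 1.36, SE 0.31, edgeR adjusted p = 0.022). KO1 was close to WT2, and KO2 stood well above the other knockout libraries. Ctss, or cathepsin S, which trims the invariant chain of MHC class II, had 40.3, 76.0 and 66.4 CPM in KO1, KO2 and KO3, against 12.6, 33.7 and 29.7 CPM in WT1 to WT3. It rose 2.4-fold (1.26, SE 0.3, edgeR adjusted p = 0.027), with no overlap between the groups and WT1 the lowest library.

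Lyz2, the lysozyme of macrophages and the most abundant of the 34 per kb of transcript in both groups, had 55.7, 125 and 103 CPM in the knockout libraries against 40.5, 70.1 and 41.6 CPM in the wild type ones (0.91, SE 0.27, edgeR adjusted p = 0.072). Lyz1, its Paneth cell counterpart, had 1, 6 and 3 reads in KO1, KO2 and KO3, against 0, 1 and 3 in WT1 to WT3. Of the 50-base windows of the Lyz1 transcript 16.1% were found unchanged in Lyz2, so these few reads are uncertain. Emr1, which encodes the F4/80 antigen and is now named Adgre1, averaged 42.4 ± 16.1 CPM in knockout and 23.9 ± 11.1 CPM in wild type (0.85, SE 0.33, edgeR adjusted p = 0.16).

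Csf1r, the receptor for the growth factor that macrophages depend on, averaged 40.2 ± 12.6 CPM in knockout and 31.5 ± 12.1 CPM in wild type (0.37, SE 0.29, edgeR adjusted p = 0.53). It overlaps Hmgxb3 on the opposite strand, and with the strand setting of the counting unknown, reads of the pair cannot be told apart. Cd14, the endotoxin co-receptor, had 19.8, 20.6 and 52.9 CPM in KO1, KO2 and KO3, against 19.6, 19.2 and 11.9 CPM in WT1 to WT3. KO1 and KO2 were barely above WT1, and KO3 alone stood high. Laptm5, a lysosomal membrane protein of leukocytes, averaged 13.3 ± 4.66 CPM in knockout and 9.62 ± 1.96 CPM in wild type.

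Cd68 and Aif1, both standard stains for macrophages, were below the filter. Cd68 had 8, 10 and 16 reads in KO1, KO2 and KO3, against 1, 4 and 7 in WT1 to WT3, a depth-scaled ratio of 2.07 with an exact 95% counting interval of 1.05 to 4.39. For Aif1 the reads were 3, 8 and 10 in the knockout libraries and 6, 2 and 3 in the wild type ones. Such intervals cover counting error only, and the ratio is of reads per read in tested genes with TMM scaling.

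The Fc receptor and adaptor genes held no call. Fcer1g and Tyrobp encode small membrane adaptors with an ITAM, the phosphorylated motif that recruits the kinase Syk to Fc receptors and to Trem2. Fcer1g had 9.91, 20.1 and 14.6 CPM in KO1, KO2 and KO3, against 6.99, 4.63 and 7.13 CPM in WT1 to WT3 (1.25, SE 0.35, edgeR adjusted p = 0.053). Tyrobp had 8.05, 22.3 and 11.8 CPM in KO1, KO2 and KO3, against 4.89, 4.63 and 6.53 CPM in WT1 to WT3 (1.37, SE 0.41, edgeR adjusted p = 0.07). For both the groups did not overlap and KO1 was nearest to wild type.

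Fcgr3, a low-affinity IgG receptor, also did not overlap, at 9.48 ± 2.31 CPM in knockout and 5.85 ± 0.673 CPM in wild type (0.72, SE 0.34, edgeR adjusted p = 0.26). The high-affinity receptor Fcgr1 was not tested, with 23 reads over the knockout libraries and 9 over the wild type ones.

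Cybb, the catalytic subunit of the phagocyte NADPH oxidase, had 27.9, 41.8 and 33.4 CPM in KO1, KO2 and KO3, against 9.08, 19.2 and 13.1 CPM in WT1 to WT3. Every knockout library was above every wild type library, and the change was 2.48-fold (log2 fold change 1.31, SE 0.27, edgeR adjusted p = 0.013). Its membrane partner Cyba was under the filter, with 3, 10 and 13 reads in KO1, KO2 and KO3, against 4, 6 and 2 in WT1 to WT3, and its ratio of 1.58 had a counting interval of 0.771 to 3.44. Of 5 further oxidase genes, cytosolic subunits and Rac proteins, only Rac1 passed the filter. This GTPase, which most cells express and whose exons overlap Daglb on the opposite strand, was at 122 ± 12.3 CPM in knockout and 119 ± 6.64 CPM in wild type.

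Itgb2, the shared beta chain of the leukocyte integrins, had the smallest adjusted p of the 21 tested markers. It had 21, 30 and 35 reads in KO1, KO2 and KO3, against 5, 6 and 6 in WT1 to WT3, which is 13, 16.3 and 12.2 CPM in the knockout libraries against 3.49, 3.97 and 3.56 CPM in the wild type ones. The gap between the groups exceeded the range within either, and the change was 3.68-fold (log2 fold change 1.88, SE 0.34, edgeR adjusted p = 0.0058). It was called in each fit that was run, with log2 fold changes of 1.76 to 1.98 and adjusted p up to 0.039 across the fits that left out 1 library. Itgb2 lies on chromosome 10 of GRCm38 (chr10:77530252-77565708, plus strand, GENCODE M21), with no exon shared with another gene there.

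The alpha chain Itgam, which pairs with Itgb2 on myeloid cells, had 3, 19 and 10 reads in KO1, KO2 and KO3, against 5, 7 and 3 in WT1 to WT3, and was not tested. KO1 was within the wild type range. Ptprc, the CD45 phosphatase of all leukocytes, had 26.0, 32.6 and 46.6 CPM in KO1, KO2 and KO3, against 19.6, 19.2 and 21.4 CPM in WT1 to WT3. These groups did not overlap, with an adjusted p above the threshold (0.83, SE 0.25, edgeR adjusted p = 0.066).

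The 4 genes of lipid-associated macrophages were low, and Spp1 alone was tested. Spp1, or osteopontin, which bile duct cells also make, averaged 18 ± 6.33 CPM in knockout and 16.2 ± 4.55 CPM in wild type (0.17, SE 0.3, edgeR adjusted p = 0.81). Gpnmb, a lysosomal glycoprotein, had 1, 16 and 24 reads in KO1, KO2 and KO3, against 3, 0 and 0 in WT1 to WT3. The ratio of summed reads was 9.99 with a counting interval of 3.19 to 50.4, and KO1 was below WT1. Lgals3, or galectin-3, had 1, 16 and 17 reads in KO1, KO2 and KO3, against 3, 2 and 0 in WT1 to WT3 (ratio 4.97, interval 1.93 to 16.3).

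Gpnmb and Lgals3 thus shared a pattern, high in KO2 and KO3 and at the wild type level in KO1. Both were called without KO1 (edgeR adjusted p = 0.012 and 0.034) and with no filter (0.00065 and 0.026). Under a looser filter (1 CPM or more in 3 libraries) neither was called (0.081 and 0.17). Nor was either called in the other fits that tested it, which for Gpnmb were those without WT1, WT2 or WT3 and with KO2 alone (edgeR adjusted p = 0.088, 0.25, 0.28 and 0.068). For Lgals3 they were those without WT1 or WT2 and with KO2 alone (0.21, 0.32 and 0.086). Trem2, the lipid receptor that signals through Tyrobp, had 1, 0 and 1 reads in KO1, KO2 and KO3 and none in wild type, at or under the 3 reads that a count of 0 allows, so no fold was drawn.

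Of the monocyte chemokine receptors, Ccr2 had 5, 16 and 14 reads in KO1, KO2 and KO3, against 4, 1 and 4 in WT1 to WT3 (ratio 2.84, interval 1.34 to 6.72). The groups did not overlap in CPM, by a narrow margin, and it was not called in the fits that could test it. Cx3cr1 had 2 reads in all in knockout and 3 in wild type, too few for a fold at this depth.

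Csf3r, the receptor for the neutrophil growth factor G-CSF, had 13, 25 and 23 reads in KO1, KO2 and KO3, against 3, 7 and 4 in WT1 to WT3. In CPM these were 8.05, 13.6 and 8.00 in the knockout libraries, against 2.10, 4.63 and 2.38 in the wild type ones. It rose 3.18-fold without overlap (log2 fold change 1.67, SE 0.43, edgeR adjusted p = 0.04). The call was the least firm of the 5, as it held in 1 of the 6 fits that left out a library and in neither DESeq2 nor limma-voom. S100a8 had 3, 1 and 6 reads in the knockout libraries and 2, 1 and 1 in the wild type ones. S100a9 had 3, 7 and 18 reads in KO1, KO2 and KO3, against 3, 0 and 1 in WT1 to WT3 (ratio 5.12, interval 1.79 to 20.1), and neither was tested.

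The markers were unevenly distributed among libraries. KO2 exceeded every wild type library for 20 of the 21 tested markers and KO3 for 18, but KO1 for 11. KO1 was the lowest knockout library for 18 of the 21, and WT1 was the lowest wild type library for 14. Summed over all 34 markers the levels were 538, 984 and 941 CPM in KO1, KO2 and KO3, against 364, 574 and 454 CPM in WT1 to WT3, so KO1 lay below WT2. Of the 21 tested markers, 11 did not overlap between groups, all higher in knockout (52.4%), where 12.4% of tested genes lay entirely above wild type. The filter favours such gaps, as 5 of the 11 were among the 6 markers that passed it through their knockout reads. Among the 15 that reached the filter level in every wild type library, 6 did not overlap. Over all 34 markers, 13 lay entirely above wild type, where 9.85% of genes with a read did.

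The role groups differed in where KO1 stood. For the resident genes the median of log2(CPM + 1), taken relative to the mean of the wild type libraries, stood at -0.05, 0.74 and 0.97 in KO1, KO2 and KO3, against -0.51, 0.43 and 0.06 in WT1 to WT3. For the general macrophage genes it was 0.25, 0.90 and 1.2 in the knockout libraries, against -0.27, 0.44 and 0.24 in the wild type ones, again with KO1 below WT2. The Fc receptor and adaptor genes (0.52, 1.56 and 1.03 in the knockout libraries) and the pan-leukocyte genes (0.97, 1.28 and 1.34) had all 3 knockout libraries above the wild type ones, which reached 0.18 and 0.03. These medians rest on 3 and 2 tested genes. All of these but Ptprc were below the filter level in at least 1 wild type library and passed through knockout reads. The untested Fcgr1 and Itgam had KO1 within the wild type range, at 1.86 CPM each.

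**Figure D3:**
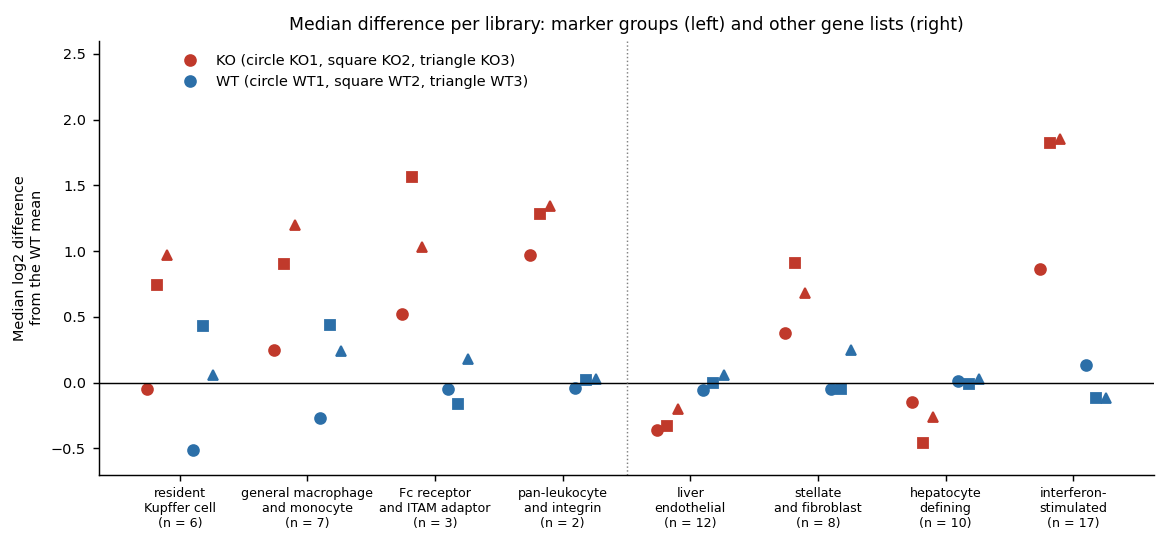
Median log2(CPM + 1) relative to the mean of the WT libraries (y axis) per library for 4 marker groups and 4 other gene lists (x axis, n = tested genes), red for KO and blue for WT. KO1 overlaps wild type for the resident (-0.05) and general macrophage genes (0.25) but not for the pan-leukocyte genes (0.97). Of the 2 tested pan-leukocyte genes, Itgb2 passed the filter through its knockout reads.

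Other lists moved across the same libraries, and their part in the marker values was not tested. Of 17 tested interferon-stimulated genes, from a list of 25, 13 rose and none fell, where 3.08% of all tested genes were called higher. Ifit1, Ifit2, Ifit3, Usp18, Mx2, Rsad2, Ifi44, Rtp4 and Xaf1 were below the filter level in at least 1 wild type library. They passed through their knockout reads, such as Usp18 with 7 reads in each wild type library, so the filter favours rises here too. The median of the 17 on the same scale was 0.86, 1.82 and 1.85 in KO1, KO2 and KO3, so KO1 was lowest there too. In WT1 to WT3 it was 0.13, -0.12 and -0.12. Of 8 tested stellate cell and fibroblast genes 2 rose, Col1a2 (24.4 ± 9.13 CPM in knockout and 8.78 ± 1.74 CPM in wild type) and Dcn, and none fell. Liver endothelial genes had 1 rise and 1 fall among 12, Tek at 106 ± 17.0 CPM in knockout and 33.2 ± 1.57 CPM in wild type and Stab2 at 63.1 ± 18.7 CPM in knockout and 119 ± 5.66 CPM in wild type. The hepatocyte-defining genes summed lower in each knockout library than in any wild type one, as given above. Cyp2e1 and Tek kept their calls whichever library was left out, whereas Stab2, Col1a2 and Dcn each lost theirs in some of those fits.

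Set against the resident genes of the same library, where no scaling factor enters, some groups still differed. The general macrophage genes had 1.30, 1.63 and 1.38 reads per resident read in KO1, KO2 and KO3, against 1.14, 1.10 and 1.06 in WT1 to WT3. The oxidase genes had 0.166, 0.166 and 0.121 reads per resident read in the knockout libraries, against 0.0929, 0.101 and 0.0789 in the wild type ones, and the neutrophil genes 0.0657, 0.0629 and 0.0522 in the knockout libraries against 0.0437, 0.0231 and 0.0197 in the wild type ones. These 3 groups did not overlap. Of the 376, 856 and 1245 general macrophage reads in KO1, KO2 and KO3, the called Mpeg1 held 79, 238 and 215. The called Ctss held 65, 140 and 191. Of the 209, 381 and 323 reads in WT1 to WT3, Mpeg1 held 44, 66 and 41 and Ctss 18, 51 and 50. The gap of this group thus depends on its called genes. The called Cybb held 13, 29 and 22 of the 17, 35 and 24 oxidase reads in WT1 to WT3. The neutrophil genes had 8, 8 and 6 reads there, of which 3, 7 and 4 were of the called Csf3r. The oxidase and neutrophil ratios thus rest largely on single genes or few reads. The Fc receptor, pan-leukocyte, lipid-associated and chemokine receptor groups did overlap, the last with few reads. Gene by gene against Clec4f, 18 of the 20 other tested markers overlapped, among them the called Mpeg1, Cybb and Csf3r, each with KO3 below WT2. The 2 that did not overlap were Ctss and Itgb2, the last with ratios of 0.266, 0.182 and 0.106 in KO1, KO2 and KO3, against 0.0676, 0.0625 and 0.0638 in WT1 to WT3.

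**Figure D4:**
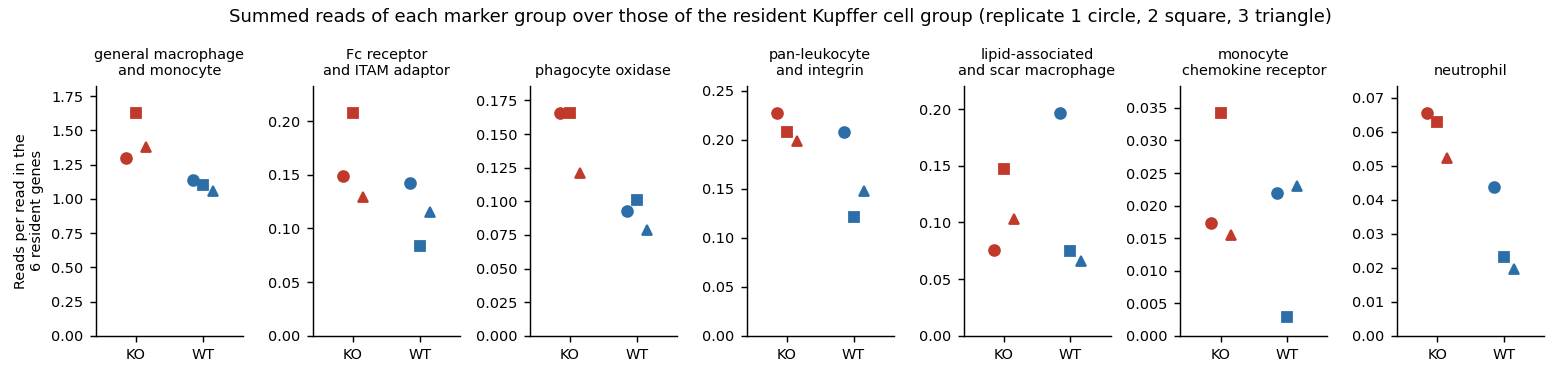
Summed reads of each marker group per read in the 6 resident Kupffer cell genes (y axes start at 0) in the KO and WT libraries (x axis), 1 point per library. The general macrophage, oxidase and neutrophil groups lie wholly above wild type, for example 1.30 to 1.63 in KO against 1.06 to 1.14 in WT for the general macrophage genes. The general macrophage reads include those of the called Mpeg1 and Ctss. The oxidase reads are mostly of Cybb, and the neutrophil genes have 8, 8 and 6 reads in WT1 to WT3.

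Per kb of transcript, which allows levels to be set beside each other, Lyz2 led in both genotypes (71.6 CPM per kb in knockout and 38.4 CPM per kb in wild type). In knockout liver the next were Ctss (45.1), Cd5l (36.4), Clec4f (34.1) and Vsig4 (26.0 CPM per kb). In wild type liver they were Clec4f (23.1), Cd5l (20.6), Ctss (18.8) and Vsig4 (17.6 CPM per kb). Among these 4, neighbours in each order lay closer than the larger of their SDs. Itgb2, at 4.65 CPM per kb in knockout and 1.24 CPM per kb in wild type, and Csf3r, at 2.84 CPM per kb in knockout and 0.872 CPM per kb in wild type, were among the low ones.

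Of 32 tested macrophage genes outside the 34, from a list of 50, 3 rose and none fell, with a median log2 fold change of 0.66 and 26 positive. Plek, or pleckstrin, a substrate of protein kinase C in platelets and leukocytes, averaged 25.1 ± 7.58 CPM in knockout and 9.21 ± 2.94 CPM in wild type (1.47, SE 0.31, edgeR adjusted p = 0.014). C1qc, a chain of complement C1q made by macrophages, averaged 27.2 ± 6.5 CPM in knockout and 10.6 ± 4.56 CPM in wild type (edgeR adjusted p = 0.018). Clec7a, the beta-glucan receptor dectin-1, averaged 16.1 ± 2.79 CPM in knockout and 6.12 ± 2.96 CPM in wild type (edgeR adjusted p = 0.033). It was below the filter level in WT1 and WT2, with 7 and 6 reads, and passed through its knockout reads. Plek shares exon sequence with Cnrip1 on the opposite strand, as Stab2, Cebpa and Ctsb do with Gm16268, Gm45091 and Fdft1, and among the markers Itgam and Spp1 share exons with predicted genes on their own strand. The call of Plek was lost without KO2, WT2 or WT3, that of C1qc without KO3, WT1 or WT3, and that of Clec7a without KO2, KO3, WT1 or WT2 and with KO2 alone.

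Among transcription factors of the lineage, Cebpa, a myeloid factor that is also a main factor of hepatocytes, fell to 114 ± 12.6 CPM in knockout, against 170 ± 15.9 CPM in wild type (log2 fold change -0.58, SE 0.15, edgeR adjusted p = 0.044). The groups did not overlap. The call was lost with upper quartile factors, without scaling factors, with KO2 alone and in each fit that left out KO2, KO3, WT1, WT2 or WT3.

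Of 12 further monocyte genes 3 were tested and Plac8, a small cysteine-rich protein of monocytes and plasmacytoid cells, rose. It had 11.1, 7.60 and 14.3 CPM in KO1, KO2 and KO3, against 2.79, 1.98 and 1.78 CPM in WT1 to WT3 (2.34, SE 0.43, edgeR adjusted p = 0.0066). Here KO1 was not the lowest. Plac8 had 4, 3 and 3 reads in WT1 to WT3, below the filter level in each, and passed through its knockout reads. Of 4 tested among 20 further neutrophil genes Lcn2 rose, to 56.4 ± 59.7 CPM in knockout against 6.46 ± 4.33 CPM in wild type (edgeR adjusted p = 0.022), with KO2 at 125 CPM. The call of Plac8 was lost without WT3 and with KO2 alone, and that of Lcn2 without WT1 or WT3 and with limma-voom. The log2 fold change of Lcn2 was 3.09 with all libraries, 1.74 without KO2 and 3.72 without WT2. Hepatocytes also make this acute-phase protein, so it does not mark neutrophils alone. Lcn2 was also below the filter level in WT1 and WT3, with 4 and 9 reads.

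Mmp12, Retnlg and Ccr1 had no read in any wild type library and at least 10 in knockout, and were picked out after their values were seen. Mmp12, the macrophage elastase, had 4, 20 and 17 reads in KO1, KO2 and KO3 and was at least 9.99-fold higher when set against 3 reads over the wild type group. Retnlg, a resistin-like gene of neutrophils, had 4, 8 and 16 reads (at least 6.82-fold higher), and the chemokine receptor gene Ccr1 had 5 in each (at least 3.65-fold higher). Over all genes, 0.306% of the 16989 genes with a read had this pattern.

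Lysosomal and lipid-associated genes gave no call among 17 tested (median 0.19), with Lamp2 at 968 ± 18.1 CPM in knockout and 1090 ± 92.6 CPM in wild type and Ctsb at 653 ± 64.1 CPM in knockout and 508 ± 50.8 CPM in wild type. Genes of CSF1 and ITAM signalling gave none among 5. Lymphocyte genes were near the floor, with Cd3d, Cd3e and Cd3g at 0 in all wild type libraries and at 0 to 2 reads in knockout. Cd247, the 1 lymphocyte gene tested, was level (59.3 ± 4.66 CPM in knockout and 60.1 ± 5.88 CPM in wild type) and shares exons with Pou2f1 on the opposite strand. Bile duct genes gave no call among 4 and red blood cell genes none among 2. Dendritic cell genes gave no call among 2 tested of 10, with Clec9a at 25.5 ± 1.11 CPM in knockout and 27.5 ± 2.28 CPM in wild type. Clec9a shares exon sequence with Clec1b on its own strand, so these reads may not be of Clec9a alone.

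The number of markers called turned on single libraries. Without KO1, 13 of 23 tested were called (4.28% of all genes in that fit), adding Cd5l, Clec4f, Fcer1g, Gpnmb, Lgals3, Lyz2, Ptprc and Tyrobp. Without KO2, WT1 or WT3, Itgb2 was the 1 marker called (2.03%, 1.83% and 1.34% of all genes). Without KO3, 3 were called (2.15%), and without WT2, 5 of 23 (1.78%), with Cd5l in place of Csf3r. With KO2 alone, the library with pancreatic transcripts at the wild type level, 9 of 26 were called (2.98%) on the assumption that it varies like the wild type libraries. The 5 calls were the same with RLE factors (3.03% of all genes) and with the looser filter (2.46%). Upper quartile factors gave 7 (3.37%), no scaling factors 9 (4.06%), DESeq2 6 (2.83%), limma-voom 4 (2.55%) and an adjusted p under 0.10 gave 10 (4.85%).

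**Figure D5:**
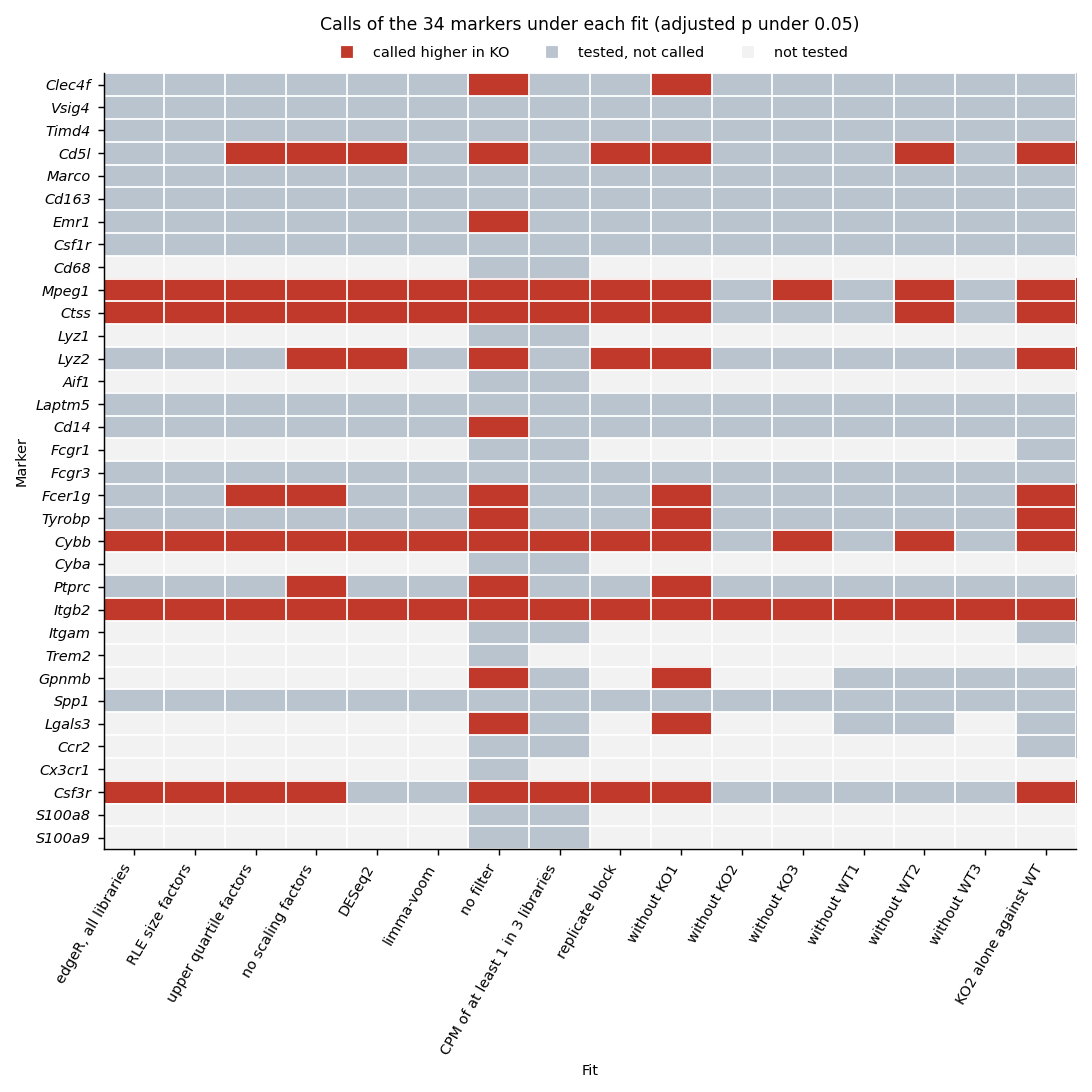
Calls of the 34 markers (y axis) under 16 fits (x axis), red where the marker was called higher in KO at an adjusted p under 0.05, grey where it was tested and not called, and pale where it was not tested. Itgb2 is red in every column, while the fits without KO2, WT1 or WT3 hold no other call.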

How the data were processed

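The authors deposited raw read counts per gene symbol for each library, with no normalization. Per the submitters' processing notes the tools were TopHat 1.4.1, HTSeq and edgeR and the build mm9, with no role stated and the strand setting not given in the sources used here. Reads in no gene, 93.3% to 95.8% of counted reads, were left out. The filterByExpr filter (min.count 10) was applied, and genes were scaled with TMM and tested with the edgeR 4.0.16 quasi-likelihood test in R 4.3.3, group as the only term, Benjamini-Hochberg over 9180 genes. A standard error is the absolute log2 fold change divided by the root of the F statistic. Intervals of read ratios are exact binomial at 95%. The members and lists were chosen with earlier results of these data known, and so carry no independent support. Named genes were the 34 members and, per further list, up to 5 called genes or the 2 most abundant. One result among the transcription factors is not reported here, and so no count is given for that list.

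Transcript lengths and overlaps came from GENCODE M21 (GRCm38), taking the longest APPRIS principal transcript, and promoter windows from RefSeq. Alternatives used DESeq2 1.42.0, limma 3.58.1, other scaling, filters and threshold, a replicate block and left-out libraries. In a simulation of 9180 genes the test called 9.52%, 63.6% and 93.7% of genes changed 1.5-fold, 2-fold and 4-fold, with 5 of 112 calls false. Python 3.11.15 prepared tables and figures.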

Additional observations from a re-analysis of the deposited data

How the results depend on the processing

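Other scaling, no filter and the threshold of 0.10 kept all 5 calls among the markers and in most cases added others, while calls were lost with left-out libraries and, for Csf3r, with DESeq2 and limma-voom. The number called higher was 9 without scaling factors, where the median of all genes was 0.099 on the log2 scale, against 0.008 with TMM, 15 with no filter, 9 with KO2 alone and 10 at an adjusted p under 0.10. It ran from 1 to 13 when 1 library was left out, and no marker was called lower in any of these fits. Over all genes 576 were higher and 509 lower with no filter, 445 and 437 at an adjusted p under 0.10, and 127 to 409 higher and 95 to 363 lower with 1 library left out. By role, with a library left out, 0 to 2 resident, 0 to 3 general macrophage, 0 to 2 Fc receptor and adaptor, 0 to 1 oxidase, 1 to 2 pan-leukocyte, 0 to 2 lipid-associated and 0 to 1 neutrophil genes were called. No filter gave 2 resident, 5 general, 2 Fc receptor and adaptor, 2 pan-leukocyte and 2 lipid-associated calls. Resident calls were 1 (Cd5l) with upper quartile factors, without scaling factors, with DESeq2, with the replicate block and with KO2 alone. Fc receptor and adaptor calls were 1 with upper quartile factors and without scaling factors and 2 with KO2 alone, pan-leukocyte calls 2 without scaling factors, and neutrophil calls 0 with DESeq2 and limma-voom. The cause of these shifts was not tested beyond the fewer or added libraries and genes.

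The median change of the 21 markers was 0.64 to 1.07 with a library left out. Signs turned for genes near 0. Cd163 became positive with upper quartile factors (0.0), no scaling factors (0.07), limma-voom (0.04) and KO2 alone (0.11), and ran from -0.28 to 0.19 with a library left out. With a library left out, Spp1 ran from -0.08 to 0.38, Rac1 from -0.04 to 0.09, Grb2 from -0.21 to 0.13, Cd247 from -0.11 to 0.03, Alas2 from -0.2 to 0.15 and Beta-s from -0.19 to 0.16. Grb2, Cd247, Alas2 and Beta-s were positive without scaling factors (0.07, 0.07, 0.07 and 0.02), and Beta-s (0.09) and Cela1 (-0.12) turned with KO2 alone. Same-numbered libraries did not deviate together across genes (r = -0.0731, 0.0789 and 0.0349 for numbers 1, 2 and 3). Not every library correlated best with its own number. With 3 libraries per group such values cannot decide whether the numbers pair the samples, and the labels do not say. The replicate block gave 295 higher and 250 lower genes and 7 markers, adding Cd5l and Lyz2. The number of reads in genes limits the 13 untested markers, since 3 reads are 1.04 to 1.86 CPM in knockout and 1.78 to 2.1 CPM in wild type libraries.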
